A study of Mus musculus with 8 samples.

Results

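CHD4 peaks of neurons made from an inner ear progenitor line were compared with CHD4 peaks of the same line while it proliferated. Members were all peaks of the deposited CHD4 lists, 1 library per state: 4599 in neurons and 4919 in proliferating cells, together 9518 of the 26724 peaks in the 6 lists used here. Peaks counted as shared when they overlapped by at least 1 bp. Both states came from 1 immortalised mouse line, iMOPs (immortalised multipotent otic progenitors), labelled wild-type and without treatment, so neither group carried a gene edit. Neuron cultures had Neurobasal medium, N21, L-glutamine at 2 mM and, at 1 µM, the CDK2 kinase inhibitor K03861. Proliferating cultures had DMEM/F12, B27, the growth factor bFGF at 20 ng/ml and carbenicillin at 25 µg/ml. CUT&Tag, in which an antibody guides a transposase that tags nearby DNA, was done with 500000 cells per library. H3K4me3 and p300 libraries from the same states serve below only to annotate CHD4 peaks.

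CHD4 is an ATPase of the SNF2 family and the motor of the NuRD complex, which joins nucleosome remodelling to histone deacetylation by HDAC1 and HDAC2. NuRD is found both at enhancers and promoters that are in use and at genes that are being shut down, and in neural development it takes part in silencing progenitor genes and in connecting neurons. p300 is a histone acetyltransferase that marks enhancers and active promoters, and H3K4me3 is a histone mark of promoters in use or poised for use.

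With 1 library per state, each difference below describes these libraries and has no replicate check, and no p-values are given. Shares carry exact (Clopper-Pearson) 95% intervals in brackets, which cover counting error only. H3K4me3, used to check the labels, was listed at a gene end of 5 of 10 progenitor markers in neurons and 10 of 10 in proliferating cells; Ccnd1, Etv4, Etv5, Hes1 and Id3 carried it in proliferating cells alone. Of 12 neuronal markers, 3 (Elavl3, Map2 and Tubb3) carried it in neurons and 2 (Map2 and Tubb3) in proliferating cells. Dcx, Nefl, Nefm, Neurod1, Isl1, Gata3, Pou4f1, Prph and Ntrk3 did not in either list. Markers of other cell types were few in both states: Myo6 alone of 6 hair cell genes, Pmp22 of 6 glial genes and Vim of 5 mesenchymal genes in each state, and of 4 blood genes none in neurons and Cd68 in proliferating cells. Peak lists do not show expression, and the part of other cells in the results was not tested.

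Promoters of 7 genes described below are shown because each lay in a CHD4 peak that bears on the results, and because they span the range of CG content discussed next. Each is the RefSeq window from 250 bases before to 50 bases after a transcript start (GRCm38.p6, the assembly of mm10), 5′ to 3′ on the strand of the gene, with CG dinucleotides, the target of DNA methylation, in capitals. Nhlh1 stands apart with 2 CG, and the other 6 hold 17 to 26 whichever state had the peak. The first 3 lay in a CHD4 peak in neurons only: Nhlh1, a helix-loop-helix factor of young neurons (chr1:172057547-172057846, minus strand, 2 CG), Plxnd1, a semaphorin receptor (chr6:115994956-115995255, minus strand, 23 CG), and Ephb2, an ephrin receptor (chr4:136835963-136836262, minus strand, 24 CG). The next 3 lay in a CHD4 peak in proliferating cells only: Mcm6, part of the replicative helicase (chr1:128359656-128359955, minus strand, 21 CG), Pcna, the polymerase clamp (chr2:132253131-132253430, minus strand, 26 CG), and Nrarp, a feedback inhibitor of Notch (chr2:25180508-25180807, plus strand, 21 CG). The promoter of Epha4, an ephrin receptor (chr1:77515039-77515338, minus strand, 17 CG), lay in a CHD4 peak in both.
Nhlh1: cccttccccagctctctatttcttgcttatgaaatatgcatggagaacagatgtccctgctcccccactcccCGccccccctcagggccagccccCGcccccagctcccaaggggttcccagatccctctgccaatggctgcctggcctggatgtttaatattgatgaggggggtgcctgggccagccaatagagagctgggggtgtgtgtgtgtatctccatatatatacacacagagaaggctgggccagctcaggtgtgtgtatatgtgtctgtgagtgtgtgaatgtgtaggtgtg
Plxnd1: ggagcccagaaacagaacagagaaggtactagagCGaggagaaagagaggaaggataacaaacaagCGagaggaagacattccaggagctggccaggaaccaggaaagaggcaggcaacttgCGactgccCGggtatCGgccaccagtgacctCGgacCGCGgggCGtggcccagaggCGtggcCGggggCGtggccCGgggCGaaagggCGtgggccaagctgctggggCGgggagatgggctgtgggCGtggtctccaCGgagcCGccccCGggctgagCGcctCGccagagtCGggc
Ephb2: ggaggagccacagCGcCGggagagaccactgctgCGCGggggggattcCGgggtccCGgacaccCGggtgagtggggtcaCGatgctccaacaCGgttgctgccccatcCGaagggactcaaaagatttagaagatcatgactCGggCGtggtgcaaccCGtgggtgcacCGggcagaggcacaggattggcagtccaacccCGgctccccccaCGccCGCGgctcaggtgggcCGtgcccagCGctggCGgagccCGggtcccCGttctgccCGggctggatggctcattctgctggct
Mcm6: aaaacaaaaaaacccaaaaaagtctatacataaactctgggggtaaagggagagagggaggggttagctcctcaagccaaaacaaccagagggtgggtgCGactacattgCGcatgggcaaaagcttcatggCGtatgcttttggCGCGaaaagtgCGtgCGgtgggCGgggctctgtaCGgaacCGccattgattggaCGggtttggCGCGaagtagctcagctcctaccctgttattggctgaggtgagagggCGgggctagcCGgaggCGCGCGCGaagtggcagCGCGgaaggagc
Pcna: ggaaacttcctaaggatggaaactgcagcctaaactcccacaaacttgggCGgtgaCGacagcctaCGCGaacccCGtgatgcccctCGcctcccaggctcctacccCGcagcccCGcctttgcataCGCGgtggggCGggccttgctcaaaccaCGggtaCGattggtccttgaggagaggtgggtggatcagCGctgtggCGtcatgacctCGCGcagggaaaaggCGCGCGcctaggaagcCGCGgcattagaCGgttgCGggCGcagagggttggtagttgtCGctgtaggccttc
Nrarp: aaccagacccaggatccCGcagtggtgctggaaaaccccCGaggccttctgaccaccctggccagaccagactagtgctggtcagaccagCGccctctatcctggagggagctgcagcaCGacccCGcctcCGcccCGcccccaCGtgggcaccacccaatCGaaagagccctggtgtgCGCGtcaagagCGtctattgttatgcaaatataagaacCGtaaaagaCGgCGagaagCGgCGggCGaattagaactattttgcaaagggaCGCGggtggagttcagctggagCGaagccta
Epha4: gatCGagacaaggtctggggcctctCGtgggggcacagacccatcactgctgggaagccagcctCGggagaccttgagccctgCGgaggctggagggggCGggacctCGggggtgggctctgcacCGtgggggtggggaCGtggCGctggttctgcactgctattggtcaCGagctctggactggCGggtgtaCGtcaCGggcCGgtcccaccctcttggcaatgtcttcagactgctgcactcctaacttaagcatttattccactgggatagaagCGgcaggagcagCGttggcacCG

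Across all 21238 such windows of coding genes, 392 lay in a CHD4 peak in neurons only, 796 in proliferating cells only and 1419 in both. The neuron-only windows had a median of 18 CG, against 24 in the proliferating-only windows and 13 in all windows. H3K4me3 of either state covered 65.1% (60.1 to 69.8) of the neuron-only windows and 91.2% (89.0 to 93.1) of the proliferating-only windows. The difference in CG lay with the windows that lacked the mark: 137 neuron-only windows without H3K4me3, such as that of Nhlh1, had a median of 8 CG, and 70 proliferating-only ones had 15. With the mark, the medians were 23 and 24. Short motifs were searched on both strands, and a match is a description of letters only. The letters TTTGGCGC, an E2F recognition sequence, were in 0 of 392 neuron-only windows, which allows a share of up to 0.937%, above the 0.636% of all windows. They were in 12 of 796 proliferating-only windows, or 1.51% (0.781 to 2.62), among them those of Mcm6 and of Ezh2, the methyltransferase of Polycomb complex PRC2, in 21 of 1419 windows with CHD4 in both states, or 1.48% (0.918 to 2.25), and in 0.636% of all windows. GGGCGG, the core of SP factor sites, was in 61.0% (55.9 to 65.8) of neuron-only and 73.2% (70.0 to 76.3) of proliferating-only windows, against 46.2% of all. Most of all windows lack H3K4me3. Among all windows with the mark in either state, GGGCGG was in 71.05% and TTTGGCGC in 1.05%, both inside the proliferating-only intervals. With the mark, GGGCGG was in 67.1% of neuron-only and 74.2% of proliferating-only windows. CAGCTG, an E-box bound by proneural factors, was in 14.0% (10.7 to 17.9) and 14.2% (11.8 to 16.8), against 15.6% of all.

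CHD4 peaks were wider in neurons. Their median width was 5200 bp in neurons and 3400 bp in proliferating cells. Peaks over 10 kb numbered 613 (13.3%) in neurons and 132 (2.68%) in proliferating cells. Both the shared peaks (medians 5300 and 3650 bp) and those of 1 state only (4900 and 2950 bp) showed this. The lists did not end at the same height. The lowest total signal was 41166 in neurons and 13606 in proliferating cells, a ratio of 3.03. Highest signals were whole multiples (within 0.02) of a step of 0.229 in neurons and 0.367 in proliferating cells, and the lowest highest signal was 50 steps against 16. The sources used here do not say how signal was scaled, and the part of threshold, depth and scaling in the widths was not tested.

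**Figure D1:**
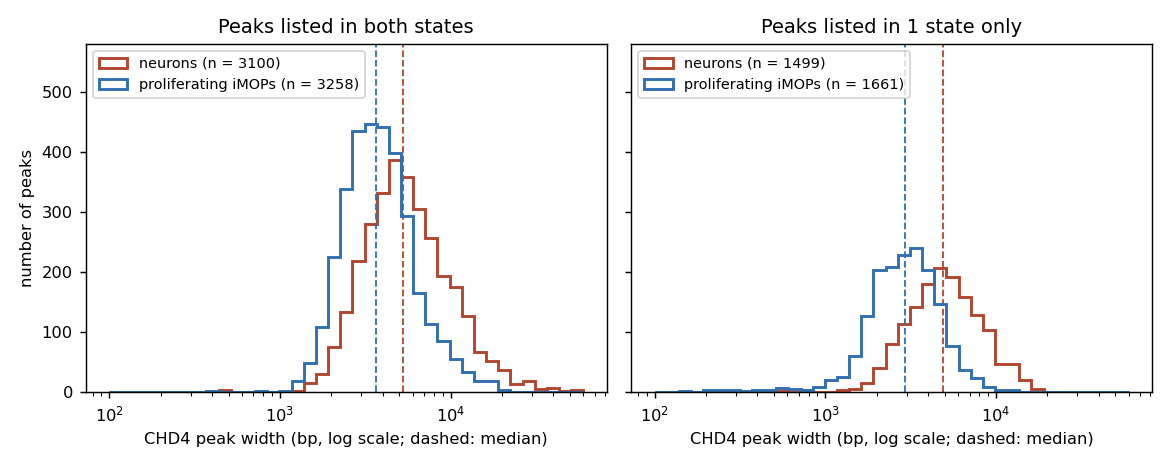
Histograms of CHD4 peak width (bp, log scale) for peaks listed in both states (left panel) and in 1 state only (right panel), with neurons and proliferating iMOPs as separate lines and dashed lines at the medians. In both panels the neuron line lies to the right, with medians of 5300 against 3650 bp and of 4900 against 2950 bp.

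Most CHD4 sites were listed in both states, in 3100 neuron peaks (67.4%, 66.0 to 68.8) and 3258 proliferating peaks (66.2%, 64.9 to 67.6). The 13.1 Mb they had in common was 45% of the bases under neuron peaks and 67.7% of those under proliferating peaks. Without the proliferating peaks below the lowest total signal of the neuron list, the shares were 15.9% of neuron and 94.2% of proliferating peaks. Overlapping peaks formed 3090 groups, of which 2934 (95%, 94.1 to 95.7) held 1 peak of each state and are called pairs below. Within pairs the neuron peak was the wider in 2362, or 80.5% (79.0 to 81.9), by a median ratio of 1.33. The highest signals of a pair lay within 50 bp of each other in 57.1% and more than 2 kb apart in 4.64%, so the centre of most sites was in the same place. Growth was even on both sides, with a median of 400 bp at each edge.

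The pairs with the largest width ratio lay at Carhsp1, which encodes a regulator of mRNA stability, at Cbfa2t3, a corepressor gene, and near Lhx1, a homeobox gene. At Carhsp1 the neuron peak spanned 21700 bp (chr16:8654901-8676600) and the proliferating peak 1400 bp, a ratio of 15.5. At Cbfa2t3 (48850 and 3500 bp, ratio 14.0) the neuron peak also carried H3K4me3 and p300, of which the proliferating peak carried neither. Near Lhx1, 17100 bp in neurons stood against 1450 bp in proliferating cells (ratio 11.8) with p300 in both. Shisal1, Gpx4, the lipid peroxide reductase, and Arvcf, a catenin, followed with ratios of 8.89, 8.34 and 7.69. Narrower in neurons were the sites of Tuba1a, the main tubulin alpha gene of young neurons, of H3f3b, a gene of histone H3.3, and of the receptor gene Notch2. At the Tuba1a start the neuron peak spanned 1750 bp (chr15:98952751-98954500) and the proliferating peak 9100 bp (ratio 0.192), although their ranks by highest signal were close, at the 82.6th and 81.3rd percentile of their lists. H3f3b had 2300 bp in neurons and 6800 bp in proliferating cells, with H3K4me3 and p300 over the proliferating peak alone. At the start of Notch2 the widths were 3750 and 10050 bp. Bahcc1, Adgrl1 and Dhx37 completed the 6 smallest ratios, and p300 was listed over the proliferating peak only at all 6 of these sites. Over all pairs that was also the most frequent p300 listing (counts below), and a wider peak overlaps p300 more easily.

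Neuron peaks also bridged sites that were separate in proliferating cells. In 146 groups (4.72%, 4 to 5.53) 1 neuron peak covered several proliferating peaks, in 131 of them 2, and only 8 groups showed the reverse. Of all coding genes, 0.617% were nearest to such a bridging peak. At Gse1, a gene of a histone demethylase complex, 39450 bp in neurons (chr8:120392301-120431750) covered 5 proliferating peaks of 23700 bp in all. The neuron peak at Tcf20, a transcription coregulator, spanned 55450 bp against 17950 bp in 3 proliferating peaks. Adgrg1, an adhesion receptor, the amino acid transporter gene Slc7a5 and Coro2b, a coronin, were also among the genes whose neuron peak covered most proliferating peaks. The gaps bridged had a median of 2675 bp and reached 28300 bp. Over these groups p300 was listed in 80 of 146 (54.8%) in neurons and 129 of 146 (88.4%) in proliferating cells. Over all pairs p300 was also listed more often in proliferating cells (counts below).

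Among the 8 sites that were split in neurons was that of Hes1, the Notch target that holds otic progenitors undifferentiated. In neurons it had peaks of 5150 bp (chr16:30056651-30061800) and 3700 bp (chr16:30067851-30071550) on either side of the gene, where proliferating cells had 1 peak of 15100 bp (chr16:30056451-30071550). H3K4me3 and p300 lay over the proliferating peak and over neither neuron peak. Its rank by total signal was the 27.6th percentile for the stronger neuron peak and the 98.9th for the proliferating peak. Near Ddit4, which restrains mTOR under stress, the ranks were the 98.6th and 99.9th, so that a split did not go with a low rank there. The other 6 split peaks were nearest to Sec14l1, Mideas, Actg1, Fcgr3, Irf2bpl and Pbx3.

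Since the signals of the lists have no common scale, strength was compared by the percentile of a peak within its own list, where 100 is the strongest. Over the 2934 pairs the percentiles by highest signal had a Spearman correlation of 0.67, and those by total signal one of 0.55, given as a description across sites that share libraries. By highest signal 326 pairs (11.1%) stood at least 25 points higher in neurons and 396 (13.5%) at least 25 points lower. Of all coding genes, 1.39% were nearest to a pair that stood higher and 1.74% to one that stood lower.

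The pair with the largest gain of rank lay inside Plxnd1 (chr6:115965801-115975850 in neurons), at the 94.3rd percentile in neurons and the 14.1st in proliferating cells, and 10050 bp wide against 2900 bp. Inside Boc, a Hedgehog coreceptor of commissural axons, a pair stood at the 95.4th percentile in neurons and the 20.6th in proliferating cells. Elmo2, whose product activates the GTPase Rac in cell migration, had the 75.5th percentile in neurons, and the overlapping proliferating peak the 2.98th, with its highest signal 12400 bp away and nearest to Slc35c2. The other 5 of the 8 largest gains lay at Mnt, a MAX partner that represses transcription (95.2nd and 17.0th), at Plxdc1 (96.0th and 20.6th), at Ralgps2, at the endolysosomal channel gene Tpcn1 and at Ptgfrn. Listing of p300 varied over these 8 sites: it was in neurons only at Plxdc1, Boc and Elmo2, in both states at Plxnd1 and Tpcn1, and in neither at Mnt, Ralgps2 and Ptgfrn.

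The largest loss of rank lay at the start of Hif3a, which encodes a hypoxia-inducible factor, at the 1.01st percentile in neurons and the 86.6th in proliferating cells. A site 48279 bp from Cdk15 had the 14.4th percentile in neurons and the 97.9th in proliferating cells. The site nearest to Ccr1, a chemokine receptor gene, had the same borders in both lists (chr9:123923101-123926700), and its percentile was 18.8 in neurons and 98.8 in proliferating cells. Near Nkd1, an inhibitor of Wnt signalling, the borders were also the same, with percentiles of 17.6 and 88.4. Camk2n1, an inhibitor of CaM kinase II, Wnk2, Trim7 and Zswim4 made up the 8 largest losses. At all 8 a p300 peak overlapped the site in proliferating cells and none did in neurons. Among all pairs this was also the most frequent p300 listing (counts below).

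Over all pairs, rank and p300 listing moved together. The 106 pairs with p300 in neurons only had a median percentile of 81.6 in neurons and 33.0 in proliferating cells, and 101 of them (95.3%, 89.3 to 98.5) ranked higher in neurons. Of the 2934 pairs, 1462 had p300 in proliferating cells only, with medians of 49.5 and 64.2, and 417 of these (28.5%, 26.2 to 30.9) ranked higher in neurons. With p300 in both (611 pairs) the median change was +2.66 points, and with p300 in neither (755 pairs) it was +4.31 points. The median width ratio was 1.87 with p300 in neurons only and 1.25 with p300 in proliferating cells only. Overlap with p300 was scored over each state's own CHD4 peak, so these listings themselves favour a wider peak in the state named. The part of this in the ratios was not tested. The p300 lists differ in length, with 965 peaks in neurons and 3144 in proliferating cells, and their part in these medians was not tested. Pairs with H3K4me3 in both states (1006) had a median change of -5.88 points, and pairs without it in either (1708) one of +2.17 points. The 15 pairs with H3K4me3 in neurons only, Cbfa2t3 among them, were all wider in neurons, with a median ratio of 3.09. H3K4me3 was also scored over each state's own CHD4 peak, so a wider neuron peak could reach a mark that the narrower peak missed. That listing therefore favours wider neuron peaks, and its width ratio is a description only.

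**Figure D2:**
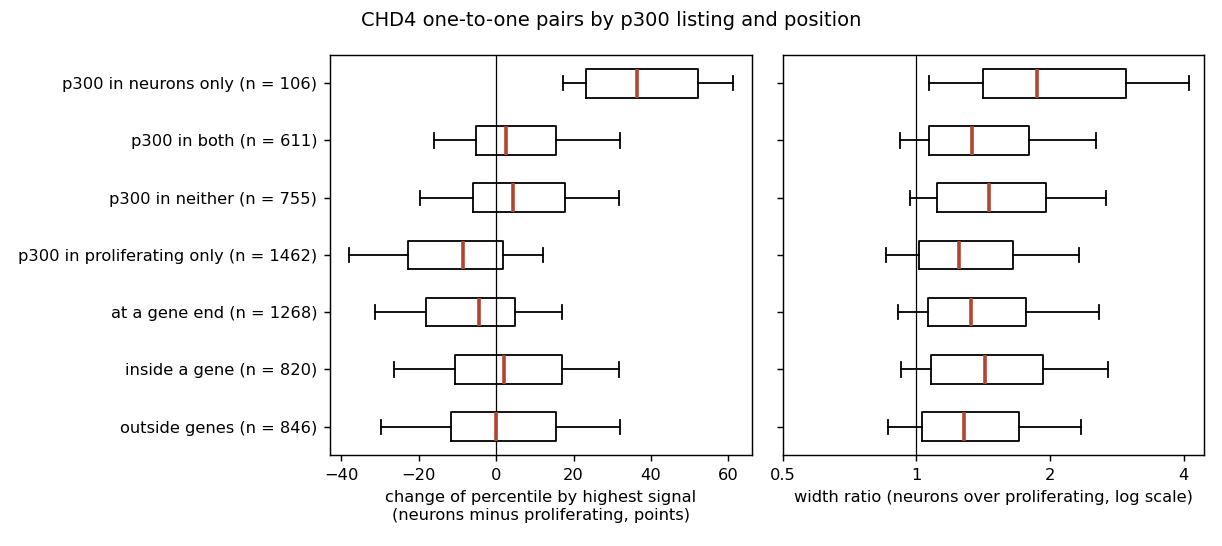
Change of within-list percentile by highest CHD4 signal, neurons minus proliferating (left panel, points), and width ratio, neurons over proliferating (right panel, log scale), for pairs grouped by p300 listing and by position; boxes span the middle 50%, bars mark medians and whiskers reach the 10th and 90th percentile. Pairs with p300 in neurons only have the highest medians in both panels (+36.4 points and a ratio of 1.87). The p300 listing was scored over each state's own peak, so it is not independent of width.

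CHD4 peaks listed in 1 state only lay in different places. The 1499 neuron-only peaks were mostly inside genes or between them, such as those within Ephb1 and near Robo1, whereas many of the 1661 proliferating-only peaks sat at gene ends, such as those at Mcm6, Pcna and Gsk3b, a kinase gene of Wnt signalling. On chromosomes 1 to 19, X and Y, 191 of 1498 neuron-only peaks (12.8%, 11.1 to 14.5) lay within 1 kb of a transcript start, against 603 of 1635 proliferating-only peaks (36.9%, 34.5 to 39.3). The other end of a gene, where known, showed no such gap, at 4.87% (3.84 to 6.09) and 4.22% (3.30 to 5.31), so the difference at ends of known kind lay at starts. Starts were known for 17492 of 21887 genes and for none on chromosome 18, so some peaks at gene ends could be assigned to neither kind. Median distance from the highest signal to the nearest gene end was 25935 bp for neuron-only and 3970 bp for proliferating-only peaks. Gene ends of either kind held 21.4% (19.3 to 23.5) of neuron-only and 47.2% (44.7 to 49.6) of proliferating-only peaks. The order depends on how far down the proliferating list goes. With proliferating peaks below the lowest total signal of the neuron list left out, gene ends held 36.1% of 3865 neuron-only and 26.2% of 42 proliferating-only peaks, and that trimming takes both signals as if on 1 scale.

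Peaks of 1 state only were more frequent among weak peaks than among strong ones. Among the weakest 25% of each list by total signal, 49.1% (46.2 to 52.0) of neuron peaks and 65.6% (62.9 to 68.3) of proliferating peaks were listed in that state only. Among the strongest 25% the shares were 12.9% (11.0 to 14.9) and 7.57% (6.15 to 9.19). Few lay just beside a peak of the other state: 7 neuron-only peaks (0.467%) and 34 proliferating-only peaks (2.08%) came within 1 kb of a peak of the other list, and 40.3% and 44.3% lay over 100 kb from one. At neuron-only sites a p300 peak of proliferating cells was listed at 36 (2.40%, 1.69 to 3.31), and at proliferating-only sites a p300 peak of neurons at 2 (0.120%, 0.0146 to 0.434). The p300 list had 3144 peaks in proliferating cells and 965 in neurons, and neuron-only CHD4 peaks were wider. Both favour the first share, and their part in it was not tested. Unplaced contigs held 6 neuron peaks, 5 of them shared, and 31 proliferating peaks, 5 of them shared.

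By total signal, the strongest neuron-only peaks lay near Fmod, which encodes a matrix proteoglycan (9400 bp, 99.2nd percentile), near Igdcc3, of the immunoglobulin superfamily (13100 bp, 98.4th), and near the predicted gene Gm40363 (6600 bp, 98.3rd), followed by the histone gene H2bc18, whose near-identical copies make its peak uncertain. Among the strongest proliferating-only peaks were those inside Gse1 (28600 bp, chr8:120273451-120302050, 99.9th percentile), where neurons had p300 without CHD4, inside Nfic, a nuclear factor I gene (13100 bp, 99.8th), and inside Thra, the thyroid hormone receptor gene (4400 bp, 97.2nd). Thra and Nfic had H3K4me3 and p300 over these peaks in proliferating cells. This order was chosen after the data were seen, because ranking by highest signal put narrow peaks first. Of the 20 state-only peaks with the highest signal, 8 in neurons and 15 in proliferating cells were narrower than 1 kb, and 3 and 0 lay at a gene end. They include a peak of 300 bp near Gm9631 and one of 850 bp inside Pxylp1 in neurons, and one of 250 bp inside Col4a6 and one of 200 bp inside Lrp1b in proliferating cells, none with p300 or H3K4me3. Asmt, the melatonin synthesis gene, headed the neuron-only order with a peak of 5500 bp at the 100th percentile.

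Several genes were nearest to many state-only peaks. As nearest genes, 1138 of 21887 coding genes (5.20%) had at least 1 neuron-only peak and 1482 (6.77%) at least 1 proliferating-only peak. At least 3 were found at 69 genes in neurons and 17 in proliferating cells. Megf11, which encodes a transmembrane EGF-repeat protein, had 8 neuron-only peaks in a row (chr9:64383051-64597100) and no proliferating-only peak. Rybp, a subunit of Polycomb complex PRC1, had 7 neuron-only peaks among 15 neuron peaks, and 9 proliferating peaks, all shared. Nav2, a cytoskeletal gene of neurite growth, and Castor2, of the arginine-sensing Castor family, had 7 each, and Auts2, a neurodevelopmental gene of Polycomb-type complexes, had 7 next to 3 proliferating-only peaks. For Castor2, 6 of them lay in a row at chr5:133452551-133886300, outside the gene (chr5:134099748-134141782). Zmiz1 and the potassium channel gene Kcnd3 had 6 each, and Tspan18, Nrp2 and Btbd11 5 each. Tspan18 had no proliferating CHD4 peak at all. Genes nearest to neuron-only peaks were long, with a median of 54.9 kb, against 30.7 kb for genes nearest to proliferating-only peaks and 17.2 kb for all coding genes. A long gene can be nearest to more peaks, and no count was adjusted for length. Along the genome, runs of at least 3 consecutive state-only peaks numbered 142 in neurons and 149 in proliferating cells.

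Proliferating-only peaks had 1 dense array. Between Hrh1, a histamine receptor gene, and Atg7, an autophagy gene, 17 consecutive proliferating-only peaks filled 134.7 kb (chr6:114496051-114630750), where the next longest run of that state had 8. In this stretch 14 of the 17 carried p300 in proliferating cells, none carried H3K4me3, and none of the 17 overlapped a p300 peak of neurons. The 17 had a median percentile of 59.1 by highest signal in the proliferating list. Nearest-gene counts for Hrh1 (9) and Atg7 (8) are this array. Trim71, an RNA-binding ubiquitin ligase of progenitors, had 4 proliferating-only peaks and no neuron peak, as had Tmem161b. Jade1, a subunit of the HBO1 acetyltransferase complex, and Tcf4, a partner of proneural factors, had 4 each beside shared peaks. Hes1 had 3, at 56281, 62530 and 77930 bp from the gene. Among neuron-only runs, 7 consecutive peaks lay in the interferon alpha cluster around Ifna13 (chr4:88640251-88803800); these genes are near-identical copies, so reads may have been split between them and the peaks are uncertain.

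**Figure D3:**
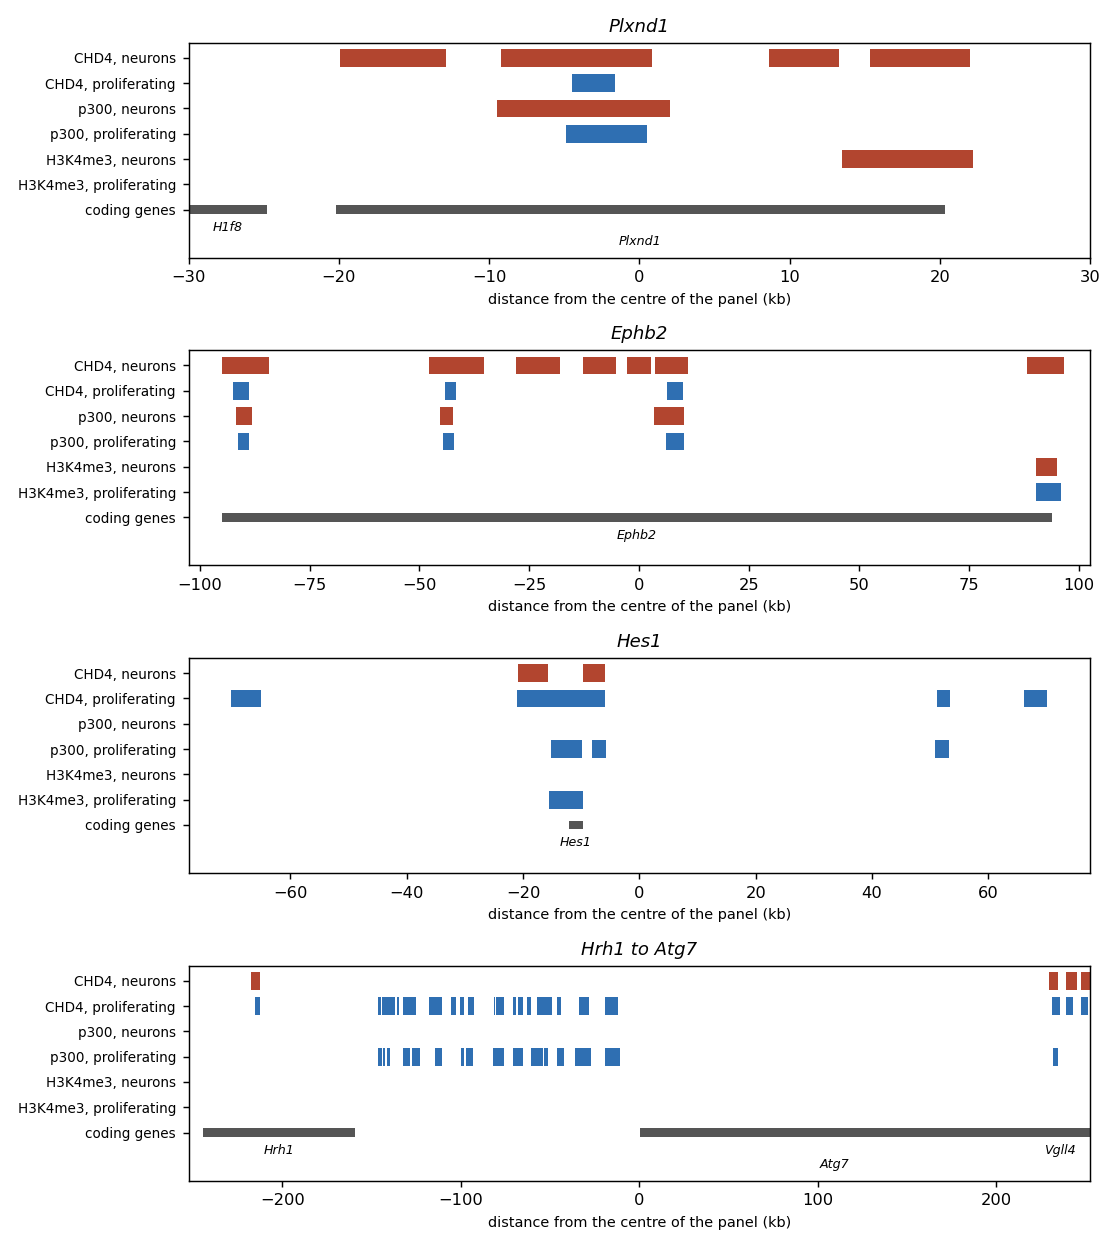
Maps of peaks (bars) of CHD4, p300 and H3K4me3 in neurons and proliferating iMOPs, with coding genes below, at Plxnd1, Ephb2, Hes1 and the stretch from Hrh1 to Atg7; the horizontal axis is distance from the centre of each panel (kb). Plxnd1 and Ephb2 have 4 and 7 CHD4 peaks in neurons against 1 and 3 in proliferating cells, the Hes1 peak is divided in neurons, and the array of 17 proliferating-only peaks lies between Hrh1 and Atg7.

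Axon guidance genes were often the nearest coding genes to CHD4 peaks listed in neurons only. Nearest genes had no distance limit, and these neuron-only peaks lay from inside the gene to 458515 bp away. The 77 genes of the Eph, semaphorin and Slit families with their receptors and relatives were nearest to 100 neuron peaks, 50 of them neuron-only, and to 65 proliferating peaks, 12 of them proliferating-only. Any CHD4 peak was nearest to 48 of the 77 (62.3%), against 19% of all coding genes. Of these 48, 28 (58.3%) had a neuron-only and 9 (18.8%) a proliferating-only peak, against 27.3% and 35.6% of the 4167 genes nearest to any CHD4 peak. The 48 genes are long, with a median of 110.2 kb. Most of the peaks were away from promoters: 6 of the 50 neuron-only and 2 of the 12 proliferating-only peaks lay within 1 kb of a transcript start. Over all state-only peaks the shares were 12.8% in neurons and 36.9% in proliferating cells, so the neuron-only guidance peaks were near the share of all such peaks. H3K4me3 overlapped 5 and 3 of the 50 and 12 peaks, and p300 of the same state 5 and 4. These overlaps are given without the shares over all state-only peaks and are a description only. The guidance genes had been singled out in earlier results of these data, so their counts are a description.

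Among the 22 ephrins and their receptors, 7 had neuron-only peaks (16 in all) and only Ephb4 had a proliferating-only one. These genes were 53.8% and 7.69% of the 13 with any CHD4 peak, against 27.3% and 35.6% over all such genes. Ephb1, a receptor that steers retinal axons at the midline, had 4 neuron-only peaks, of 2050 to 7050 bp, and no proliferating CHD4 peak. The narrowest of them lay 211152 bp from the gene and the others inside it. Of these the one at chr9:101933851-101940900 carried p300 in neurons and ranked at the 81.9th percentile by total signal. Ephb2 had 7 neuron peaks, 4 of them neuron-only, among them 8450 bp over the promoter shown above (chr4:136830601-136839050), where H3K4me3 was listed in both states. Its 3 pairs were wider in neurons and measured 7450 to 12400 bp there, against 2400 to 3750 bp in proliferating cells. Epha4 had 2 neuron-only peaks inside the gene (chr1:77376801-77379250 and chr1:77408751-77411800) beside the pair at its start, which measured 5100 bp in neurons and 4000 bp in proliferating cells. That pair ranked lower in neurons, at the 16th percentile against the 40.4th, and p300 was listed over it in proliferating cells only. At the ligand genes Efna3, Efna4 and Efnb1 the promoter peak was 2.82, 2.86 and 2.88 times as wide in neurons, with no gain of rank (0.6th against 1.7th percentile, 27.5th against 57.1st and 21.1st against 39.4th).

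Among the 31 semaphorin, plexin and neuropilin genes, 12 had neuron-only peaks (24 in all) and 4 had proliferating-only ones (4 in all). These genes were 60% and 20% of the 20 with any CHD4 peak, against 27.3% and 35.6% over all such genes. Plxnd1 had 3 neuron-only peaks besides the pair described above, 1 of them over its promoter (chr6:115990351-115997000), where H3K4me3 was listed in neurons and not in proliferating cells. Nrp2, the semaphorin and VEGF coreceptor, had 5 neuron-only peaks, of which that at chr1:62822151-62828700 carried p300 and ranked at the 96.9th percentile by highest signal, and 1 proliferating-only peak. The neuron-only peaks of Nrp2 lay inside the gene or up to 89884 bp from it. Plxna2 was nearest to 4 neuron-only peaks, from inside the gene to 458515 bp away. Inside Plxna1 a pair measured 22200 bp in neurons and 2950 bp in proliferating cells. Sema7a, a membrane-anchored semaphorin, had a neuron-only peak of 16100 bp over its start with H3K4me3 in neurons only. Plxnb2 had one of 14100 bp with H3K4me3 in both. Sema5b went both ways, with 2 neuron-only peaks inside the gene and 1 proliferating-only peak at its start.

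The 24 Slit, Robo and netrin genes were the most even, with 10 neuron-only peaks at 9 genes and 7 proliferating-only peaks at 4 genes. These genes were 60% and 26.7% of the 15 with any CHD4 peak, against 27.3% and 35.6% over all such genes. Robo1, a Slit receptor, was nearest to a neuron-only peak with p300 at chr16:73103101-73109250, 60785 bp from the gene (95th percentile by highest signal). Draxin, a netrin antagonist, and Slit3 had neuron-only peaks with p300 inside the gene. Inside Slit1, pairs of 29300 and 9850 bp in neurons stood against 4450 and 1650 bp in proliferating cells, and the first ranked at the 81.2nd percentile in neurons and the 16th in proliferating cells, with highest signals 8550 bp apart. Proliferating-only peaks were at Ntn4 and Srgap3 (2 each), at Ntn1 (2, beside 1 neuron-only) and 325098 bp from Dcc, the netrin receptor gene (1).

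**Figure D4:**
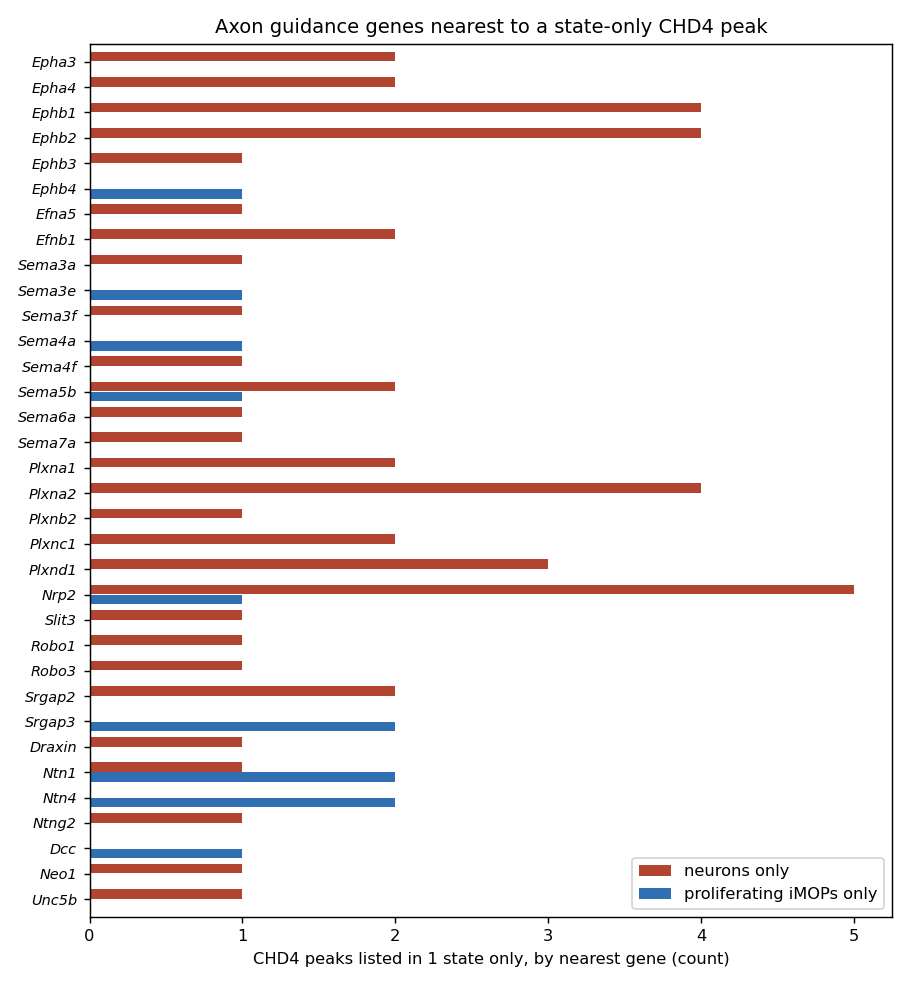
Number of CHD4 peaks listed in neurons only and in proliferating iMOPs only, by nearest gene, for the axon guidance genes that had at least 1 (horizontal axis, count of peaks). Nrp2 has 5 neuron-only peaks and Ephb1, Ephb2 and Plxna2 have 4 each, while no gene has more than 2 proliferating-only peaks.

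NuRD genes had CHD4 at sites listed in both states. Of 15 subunit genes 7 (46.7%, against 19% of all coding genes) were nearest to a CHD4 peak, each to 1 pair and none to a state-only peak. Over all genes with a CHD4 peak, 27.3% had a neuron-only and 35.6% a proliferating-only peak. With 7 genes the absence of state-only peaks is a description only. At the start of Chd4 itself the peak spanned 4450 bp in neurons (chr6:125093251-125097700) and 3000 bp in proliferating cells, at the 29.2nd and 13.0th percentile. Hdac2, a catalytic subunit, had 2750 and 2200 bp, and Gatad2a, which links MBD proteins to the remodeller, 2000 bp in both. Chd3, the paralogue of Chd4, ranked at the 59.2nd percentile in neurons and the 83.0th in proliferating cells.

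Notch pathway genes were nearest to 2 neuron-only peaks, at 2 of 18 genes, and to 8 proliferating-only peaks, at 5. Of the 13 members with any CHD4 peak, 15.4% had a neuron-only and 38.5% a proliferating-only peak, against 27.3% and 35.6% over all genes with a CHD4 peak, so the proliferating-only share was near that of all such genes. Neuron-only peaks lay near Rbpj, the DNA-binding partner of Notch, with p300 (chr5:53524701-53528400, 83.8th percentile), and inside the coactivator gene Maml2. Proliferating-only peaks lay inside Maml3 (3) and Notch2 (2), at Notch4, near the ligand gene Dll4 and over the promoter of Nrarp shown above, the last 8000 bp wide with H3K4me3 and p300 in proliferating cells. Pairs ranked in both directions. A distal pair near the ligand gene Dll1 measured 12650 bp in neurons and 3350 bp in proliferating cells (94.7th and 57.1st percentile), while the Dll1 promoter pair ranked at 73.0 and 92.0. Of the Hes repressors, Hes5 stood at the 15.8th percentile in neurons and the 61.6th in proliferating cells, and Hes7 at the 61.6th and 98.5th, both with p300 in proliferating cells only and with similar widths (22200 and 20050 bp at Hes5, 10300 and 10100 bp at Hes7). Hes6, which opposes Hes1 in neurogenesis, ranked close, at 70.5 and 76.7, with p300 in both.

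Genes that drive the cell cycle had 1 neuron-only peak and 7 proliferating-only peaks, at 1 and 6 of 30 genes. Of the 15 with any CHD4 peak these are 6.67% and 40%, the second near the 35.6% of all such genes. Mcm6 (2250 bp) and Pcna (1400 bp) had theirs at the start with H3K4me3 in both states and p300 in proliferating cells. Ccna2 and Ccne2, cyclins of S phase, Ccnd3 and Cdk6, a kinase of G1 (2), had the others, and Cdk6 also had the neuron-only peak. Aurkb, a mitotic kinase gene, had a pair at the 53.2nd percentile in neurons and the 94.5th in proliferating cells. Cell cycle exit genes had 5 neuron-only peaks at 2 of 17 genes and 0 proliferating-only peaks. The 2 genes are 28.6% of the 7 with any CHD4 peak, near the 27.3% of all such genes. Of these, 4 lay 20251 to 306601 bp from Gadd45g, a growth arrest gene, 1 of them (chr13:52020201-52027150) with p300 in neurons and at the 94.9th percentile, and 1 lay near Btg1. A further pair near Gadd45g, with p300 in neurons only, stood at the 87.9th percentile in neurons and the 21.9th in proliferating cells. At the promoters of Cdkn1b, the inhibitor p27, and Cdkn1a, the inhibitor p21, the pair was 1.88 and 2.07 times as wide in neurons, at percentiles of 35 and 1.4 against 37.3 and 8.5.

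Otic progenitor regulators ranked lower in neurons. Their 14 pairs had a median change of -20.2 points by highest signal and a median width ratio of 0.98, against -1.40 points and 1.33 over all pairs. A fall was not particular to this list. The median change was -21.5 points for Hes and Hey genes, -13.5 for cell cycle drivers, -10.9 for immediate early genes and -13.2 for genes of other cell types. It was +5.27 for neuronal transcription factors, +3.86 for Notch pathway genes and +6.41 for NuRD genes. Fgfr1, a receptor of the bFGF in the progenitor medium, had a pair at the 15.6th percentile in neurons and the 78.3rd in proliferating cells. Dusp6 and Etv4, targets of FGF signalling, had 28.6 and 66.0, and 13.4 and 64.2. At Id1, an inhibitor of helix-loop-helix factors, the peak spanned 4400 bp in neurons and 10250 bp in proliferating cells. These sites of Fgfr1, Dusp6, Etv4 and Id1 carried p300 in proliferating cells only. A distal site near Sox9 kept its rank (97.5 and 97.3) with p300 in both, and the pair at the start of Sox2 stood at 35 and 54.6. Not all members did so: at Myc, the proto-oncogene, the pair stood at 33.9 in neurons and 12.1 in proliferating cells with p300 in neurons only, and at the end of Id2 at 53.8 and 37.3. State-only peaks were 4 at 4 of 28 genes in neurons and 8 at 7 genes in proliferating cells. These are 30.8% and 53.8% of the 13 genes with any CHD4 peak, against 27.3% and 35.6% of all such genes. The neuron-only share was thus near that of all such genes.

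Neuronal transcription factor genes had 9 neuron-only peaks at 6 of 26 genes and 4 proliferating-only peaks at 4, or 54.5% and 36.4% of the 11 with any CHD4 peak, against 27.3% and 35.6% over all genes with a CHD4 peak. Ebf2 and Ebf3, Myt1l and Myt1, the zinc finger repressors of non-neuronal genes, Nhlh1 and Sox4 had the neuron-only ones. Near Sox4 both (chr13:29012751-29017500 and chr13:29032551-29036300) carried p300 in neurons, while its start had a proliferating-only peak that began or ended 200 bp from a neuron peak. At the start of Neurog2, the proneural factor, the pair ranked at the 9.2nd percentile in neurons and the 42.7th in proliferating cells. Neurod1 was nearest to no CHD4 peak in either state. Neuronal cytoskeleton genes had 8 neuron-only peaks at 6 of 28 genes (2 each in Dclk1 and near Ncam1, 1 each in Map2, Cntn2, Elavl4 and Rbfox3) and 4 proliferating-only peaks at 3, or 42.9% and 21.4% of the 14 with any CHD4 peak. Their 14 pairs had a median change of -10.1 points by highest signal, with 5 genes at least 25 points lower in neurons and 0 higher. Over all pairs, 13.5% stood at least 25 points lower and 11.1% at least 25 points higher. Of all coding genes, 1.74% and 1.39% were nearest to such pairs. Near Stmn4, a stathmin, a pair stood at 27.5 in neurons and 82.1 in proliferating cells, and near Ncam1, the neural adhesion molecule, at 29.5 and 76.2. At Tubb3 the pair was 12350 and 10100 bp wide, at the 48.4th and 48.5th percentile. Among 32 channel and synapse genes, Hcn2, a pacemaker channel gene, had 1 neuron-only peak over its start, and Kcna2 had 3 and Kcnq3 2, and Cacng2, an AMPA receptor auxiliary subunit gene, had a proliferating-only peak at its start. Scn8a, the axonal sodium channel gene, had pairs that moved in opposite directions, at the 66.8th and 32.4th percentile in neurons against the 14.1st and 92.0th in proliferating cells.

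AP-1 and other immediate early genes, which respond to signalling within minutes, were nearest to a CHD4 peak in 19 of 24 cases (79.2%, against 19% of all coding genes), with 7 neuron-only and 6 proliferating-only peaks. These lay at 21.1% and 31.6% of the 19, below the 27.3% and 35.6% over all genes with a CHD4 peak. Junb stood at the 17.6th percentile in neurons and the 80.1st in proliferating cells and Klf2 at 27.2 and 76.7, both with p300 in proliferating cells only. Ier5 went the other way, with a distal pair at 84.8 and 20.6, 20000 bp wide in neurons and 4150 bp in proliferating cells. Of 42 genes of other cell types (hair cells, glia, mesenchyme, blood and endothelium), 9 (21.4%) were nearest to a CHD4 peak, close to the 19% of all coding genes, with 4 neuron-only and 5 proliferating-only peaks. Atoh1, the hair cell regulator, had a neuron-only peak at 1 end (chr6:64731601-64735650) without H3K4me3, and Myo6, a hair cell myosin gene, a proliferating-only peak at its start.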

How the data were processed

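CUT&Tag peak lists of CHD4, H3K4me3 and p300 were used, 1 library for each antibody and state; 2 IgG libraries were not analysed here. Libraries were read as 150 bp pairs, per the labels' protocols. SEACR, Bowtie2 and deepTools, with mm10 as build, are named in the submitters' processing notes. The sources used here do not give versions, thresholds, scaling or what the merged lists pooled. The lists hold the total and highest signal of each peak as the authors deposited them, in steps of 50 bp. Depth is unknown.

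Overlaps, groups, percentiles and nearest genes were computed with pandas 2.3.3, SciPy 1.17.1 and numpy 2.4.6 under Python 3.11.15, and figures with matplotlib 3.10.9. Comparisons were checked on simulated lists with known overlaps. A peak was assigned to the coding gene nearest to its highest signal, among 21887 genes of a RefSeq table of GRCm38.p6. That table has no strand. Transcript starts and promoter sequences came from RefSeq for 17492 of these genes, without chromosome 18. Gene ends were 1 kb either side of an annotated end.

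The members, gene lists and naming rule were chosen with earlier results of these data known. Named were 6 genes always (Chd4, Epha4, Sox2, Tubb3, Neurod1 and Hes1), the 8 largest gains and losses of rank, the 8 highest state-only peaks, the 6 largest merges and splits and their ties, the 6 largest and smallest width ratios, genes with most state-only peaks and list members with state-only or merged peaks. Some of these are omitted for space or not reported here. Pairs of other list members, the arrays of peaks and the order by total signal were chosen after their values were seen. With 1 library per state no test was made.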

Additional observations from a re-analysis of the deposited data

How the results depend on the processing

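No paired analysis was possible because each state had 1 library, and for the same reason no replicate could be left out. In 75 comparisons over 8 values and 14 alternatives, 43 stayed within the counting interval (within 0.05 for the correlation) and 32 moved beyond it. The direction of width (neurons wider) and of the correlation (positive) was kept in all of them. At least 50% coverage gave 53.8% of neuron peaks shared, 100% of groups as pairs, 76.5% of pairs wider, a ratio of 1.22, a rank correlation by total signal of 0.67 and 28.4% of neuron-only peaks at gene ends. Lists of equal covered length gave 78.1% and 42.6% shared, 92.1%, 82.8%, 1.39 and 0.43. Lists of equal size gave 65.7% and 68.9% shared, the order of the states turned. The stronger 50% of each list gave 64.1% and 62.8% shared, 24.3% and 40.2% at gene ends and a correlation of 0.49. A gap of up to 1 kb gave 93.7% as pairs, a gene window of 2.5 kb gave 24.2% and 51.7%, transcript starts alone gave 12.8% and 36.9%, and ranking by highest signal gave 0.67. Of 3 alternatives chosen after seeing the data, leaving out proliferating peaks below the lowest total signal of the neuron list gave 15.9% and 94.2% shared, 95.9% as pairs, 72.0% wider, a ratio of 1.17, and 36.1% and 26.2% at gene ends, which turns the order of the states; the other two, numbered chromosomes with X and Y alone and no peaks under 1 kb, moved none of the 8 values. The neuron list ends at a higher signal, so a site absent from a list may be present below its threshold.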
